A study of Mus musculus with 2 samples.

Results

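Cathepsins are the proteases of the endosome and lysosome. Cathepsin S, L, H, B, Z and C (Ctss, Ctsl, Ctsh, Ctsb, Ctsz, Ctsc) are cysteine proteases of the papain family, cathepsin D (Ctsd) is an aspartic protease, and legumain (Lgmn) is an asparaginyl endopeptidase that also processes other cathepsins. Cystatin C (Cst3) is a secreted inhibitor of the papain family proteases. In dendritic cells (DCs) these enzymes cut antigens and the invariant chain (Cd74) of MHC class II, with cathepsin S and cathepsin L used to different extents by different antigen-presenting cells. The list examined here holds 10 genes, and 9 of them were measured among 17751 genes. The remaining member, Ifi30, which encodes the lysosomal thiol reductase GILT, was not analysed here.

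The transcripts came from single splenic CD11c+ MHCII+ cells of female 8-week-old C57BL/6 mice, either wildtype (WT) or Batf3-/-. Batf3 encodes a transcription factor needed by conventional type 1 DCs (cDC1), and Batf3-/- mice lack it in all cells. Splenocytes had been depleted of T and B cells before live cells were sorted. Each genotype is 1 library from pooled spleens, so no test between genotypes is possible and every interval given here is a 95% interval for counting error only. The libraries hold 12224 WT cells with a median of 8374.5 UMIs (unique molecular identifiers, which count captured transcripts) and 12119 Batf3-/- cells with a median of 8516. The targeted gene was at 206 counts per 1e+06 UMIs (CPM) in the WT library and at 2.49 CPM in the Batf3-/- library. Of the cell barcodes, 56 occurred in both libraries.

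Levels are given per cluster as the UMIs of a gene over all UMIs of that cluster and library, in CPM, using the 20 clusters (C0 to C19) that the study deposited. Each transcript is tagged at its end, so levels are not divided by gene length and are compared within a gene. The study named C4, C6, C12, C17 and C18 cDC1, C0, C5, C7, C8, C9 and C10 cDC2a, and C2 and C11 cDC2b. It named C1 Il4i1+ cDC2, C3 Sox4+ cDC, C14 plasmacytoid DC (pDC), C15 monocytes and C13 T, NK and other lymphoid cells. C9 is also annotated there as mixed cDC2 in a mitochondrial state. Over both libraries 6 cDC1 markers summed to 4242 CPM in C4 against 64.5 CPM in C0, but to only 650 CPM in C12 and, through a list that includes Irf8, to 3210 CPM in C14. The 5 pDC markers summed to 11474 CPM in C14. C15 had 14826 CPM of 5 monocyte markers and also 12149 CPM of 2 neutrophil markers. C16 is given by number only. C19 carried 247716 CPM of 4 globin genes and is not a DC cluster by these markers. C11 held 2774 CPM of 6 macrophage markers, against at most 192 CPM in the other clusters. The clusters were built from the same transcripts, so the differences between them are descriptions without a test.

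Cst3 was highest in the cDC1 clusters C18, C4, C6 and C12, but not in the cDC1 cluster C17. Cst3 (chromosome 2, 148871722 to 148875692, minus strand, GRCm38) stood at 23937 CPM (interval 23885 to 23989) in WT cells of C4 and at 1585 CPM (1568 to 1602) in WT cells of C0. In the order of levels over both libraries, C18, C4, C6 and C12 came first with 30504, 23976, 18214 and 13806 CPM, followed by C15 with 8098 CPM. No intervals of neighbours overlapped among these clusters, while C8, C7, C5 and C3 could not be told apart at 1635 to 1667 CPM. C17, which carried 3810 CPM of cDC1 markers but a median of only 2348 UMIs per WT cell, was at 3092 CPM in the WT library, below C15, C16 and C14 at 9646, 4201 and 3252 CPM. In the WT library the cDC1 clusters held 29.1% of the cells and 89.7% of the Cst3 UMIs. In the Batf3-/- library they held 6.54% of the cells, 727 of 792 of these in C6, and 53.4% of the Cst3 UMIs.

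**Figure D1:**
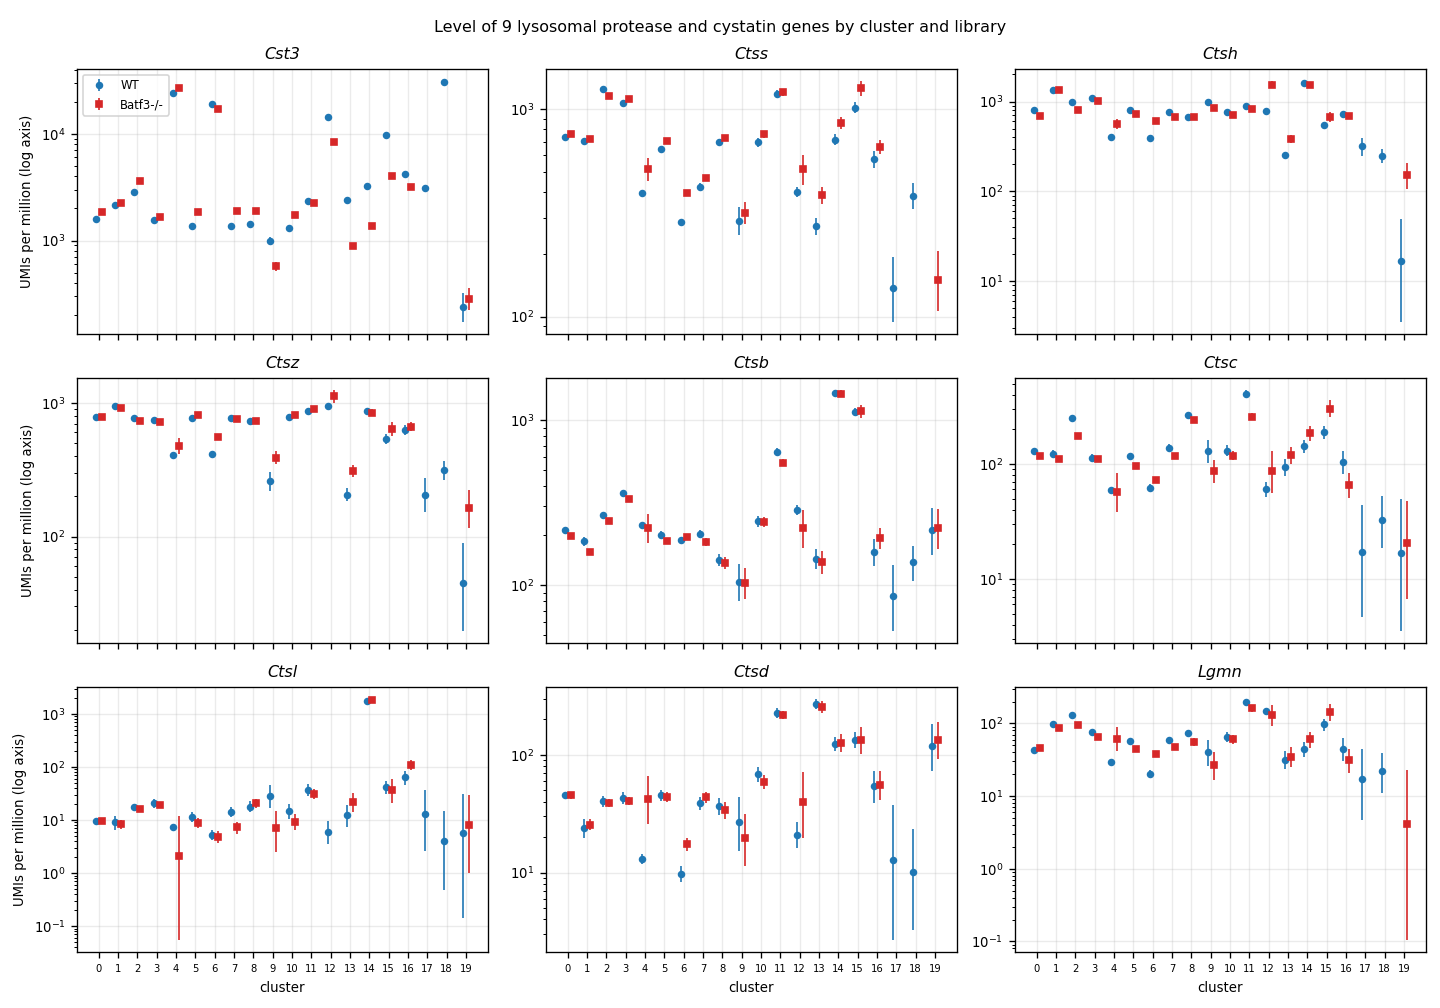
Level of each of the 9 genes in CPM on a log axis against cluster number, WT in blue circles and Batf3-/- in red squares, with 95% Poisson intervals, for clusters with at least 20 cells and at least 1 UMI in that library. Cst3 was highest in C4, C6, C12 and C18, Ctsl in C14 and Ctsb in C14 and C15.

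In C4, the largest cDC1 cluster, the proteases other than Ctsb were lower than in C0, the largest cDC2a cluster. This did not hold for every pair of cDC1 and cDC2a clusters, since WT cells of C12 had 949 CPM of Ctsz and WT cells of C0 had 779 CPM. In C4 against C0 over both libraries, Ctss was at 396 against 749 CPM, Ctsh at 405 against 742, Ctsz at 406 against 784 and Ctsc at 59.3 against 124. Ctsb was at 231 against 206 CPM, a log2 ratio of 0.17 (0.12 to 0.21). The low-level members Ctsd (13.02 against 45.79 CPM in WT cells) and Lgmn (29.9 against 43.4 CPM in WT cells) were lower in C4 as well. Of the 6 members that reached 50 CPM on average and 20 UMIs, the level needed to enter a comparison, 2 passed 2-fold, Cst3 upward and Ctsc downward, and 17.2% of the 2547 genes tested did so. The median log2 ratio of these 6 was -0.90, against -0.16 over all genes tested. The Ctsc level of C4 was no higher than the 74.0 CPM (56.9 to 94.7) found in lymphoid cells of C13 in the WT library.

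The balance of inhibitor and protease transcripts differed accordingly. In WT cells of C4 there were 16.0 Cst3 UMIs (15.8 to 16.1) for every UMI of the 6 papain family cathepsins together, and in WT cells of C6 there were 14.1. The other cDC1 clusters of the WT library had 3.99 (C17), 5.78 (C12) and 27.6 (C18), and Batf3-/- cells of C6 had 9.38. In the cDC2a clusters of the WT library the same ratio ran from 0.50 in C10 to 0.60 in C0 and C7. It was 0.81 in C2, 0.50 in C14 and 2.79 in C15. The 9 genes together took 2.55% of all UMIs in WT cells of C4 and 0.434% in WT cells of C0.

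Among the clusters Ctsl and Ctsb were highest in the pDC cluster, and Ctsb was also high in C15 and C11. Ctsl (chromosome 13, 64359337 to 64370890, minus strand) was at 1727 CPM in WT and 1837 CPM in Batf3-/- cells of C14, and 62.2% of all Ctsl UMIs lay in this cluster of 1.05% of the cells. After thinning each cell to 1000 UMIs, 75.3% of WT and 80.2% of Batf3-/- cells of C14 kept a Ctsl UMI. Outside C14 the level of Ctsl was at most 109 CPM, in Batf3-/- cells of C16. As a comparison for counts in cells of another type, 175 WT and 97 Batf3-/- cells of C13 labelled T, NK, NKT or innate lymphoid carried 12.9 and 24.7 CPM of Ctsl. Among other clusters with at least 20 cells, the interval of the Ctsl level was not wholly above that of these lymphoid cells in 15 of 19 WT and 15 of 17 Batf3-/- clusters. The exceptions were C14 and C16 in both libraries and C11 and C15 in the WT library. Ctsl in the cDC1 and cDC2a clusters was thus not above the level in these lymphoid cells beyond counting error. It was lower in some, as in Batf3-/- cells of C6, at 4.83 CPM against 24.7 CPM (13.5 to 41.5). Free RNA, mixed cells and expression by the lymphoid cells cannot be told apart there, and the highest single WT cell among them had 17528 CPM of Cst3 against a median of 280 CPM. WT cells of C9 had 28.6 CPM (16.6 to 45.7) from 17 UMIs.

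Ctsb (chromosome 14, 63122462 to 63145923, plus strand) was at 1464 CPM (1405 to 1526) in WT and 1449 CPM (1377 to 1524) in Batf3-/- cells of C14. The monocyte cluster C15 came next with 1115 and 1131 CPM, then C11 with 643 and 552 CPM, and other clusters lay at 84.6 to 342 CPM over both libraries. In C14 against C0, 4 of 8 members tested passed 2-fold, all upward (Ctsl, Ctsb, Ctsd and Ctsh, the last being an aminopeptidase), where 11.1% of 2775 genes passed upward. In C15 against C2, Ctsb, Ctsd and Cst3 of 8 members were past 2-fold upward, and 8.37% of 2629 genes were. Cst3 passed in the WT library alone (9646 against 2872 CPM) and not in the Batf3-/- library (4027 against 3593 CPM). All 10 genes of MHC class II presentation, a further list that includes Cd74 and H2-Aa, were lower in C15 than in C2 by more than 2-fold, where 2.24% of all genes were. Ctsh and Ctsz were lower in C15 than in C2 in both libraries, Ctsh at 552 against 987 CPM in WT and 674 against 814 CPM in Batf3-/- cells. Ctss and Ctsc were lower in C15 in the WT library (1021 against 1259 and 188 against 249 CPM) and higher in the Batf3-/- library (1264 against 1162 and 303 against 174 CPM).

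Ctss was highest in C11, C2, C3 and C15, and Ctsc in C11, C8, C15 and C2. Ctss (chromosome 3, 95526786 to 95556403, plus strand), the main protease of the last step of invariant chain removal in DCs, was at 1259 and 1162 CPM in WT and Batf3-/- cells of C2, at 1186 and 1208 CPM in C11, at 1021 and 1264 CPM in C15 and at 1074 and 1126 CPM in C3. It was at 733 and 764 CPM in C0, and lower in C6, at 286 and 395 CPM, and in C9, at 291 and 316 CPM. Ctsc (chromosome 7, 88278085 to 88310888, plus strand), a dipeptidyl peptidase that activates granule serine proteases, was at 409 and 258 CPM in C11, 266 and 242 CPM in C8, 188 and 303 CPM in C15, 249 and 174 CPM in C2, and 130 and 118 CPM in C0. Across the 17 clusters with at least 100 cells, the levels of Ctss and Ctsc had a Pearson correlation of 0.709 on the log2(CPM + 10) scale, the highest of all pairs of members, just above the 0.705 of Ctsh and Ctsz. The 17 points share libraries and unequal depth, and the value is a description.

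The 250 bases before the RefSeq start sites of these 2 genes are shown because both windows lie outside the annotated gene and because of that shared pattern (GRCm38.p6, plus strand, chr3:95526536-95526785 for Ctss and chr7:88277835-88278084 for Ctsc). Capitals mark GAGGAAGT, a sequence of the kind bound by the myeloid factor PU.1, on either strand.
Ctss: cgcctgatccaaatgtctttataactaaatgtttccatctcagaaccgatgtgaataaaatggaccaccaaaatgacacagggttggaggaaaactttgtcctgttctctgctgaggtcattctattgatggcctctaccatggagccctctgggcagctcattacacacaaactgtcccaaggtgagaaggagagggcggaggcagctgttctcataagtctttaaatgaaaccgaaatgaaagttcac
Ctsc: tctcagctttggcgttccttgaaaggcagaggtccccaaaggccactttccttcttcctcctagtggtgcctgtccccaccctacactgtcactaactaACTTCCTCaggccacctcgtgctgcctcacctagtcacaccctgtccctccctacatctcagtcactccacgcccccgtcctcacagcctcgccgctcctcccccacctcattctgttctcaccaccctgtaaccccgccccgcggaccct
The Ctsc window holds 1 match, on the minus strand and 144 to 151 bases before the start, and the Ctss window holds none. Among 32851 such windows 2.44% hold it. The E-box core CACGTG was found in the RefSeq windows of Ctsd, Lgmn (1 of its 2 windows) and Ctsl among the 7 measured members with such a window, and in 6.02% of all windows. The matches of Lgmn and Ctsl lie inside the gene as GENCODE annotates it, as does 1 of the 2 in the Ctsd window. TGANTCA, an AP-1 type motif, was in none of these 7 and in 6.75% of all windows. A match is a description of letters, not of binding.

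Cluster C11 combined high Ctsb, Ctsc, Ctsd and Lgmn. Against C2, Ctsb and Ctsd were past 2-fold upward in each library, with log2 ratios over both libraries of 1.23 (1.16 to 1.29) and 2.485 (2.35 to 2.62). These were 2 of 8 members tested, and 1.89% of 2546 genes passed upward. Ctsc and Lgmn had ratios of 0.68 and 0.71. The deposited cell labels divide C11, and the 20 WT and 27 Batf3-/- cells labelled macrophages had 1656 and 1056 CPM of Ctsb, 926 and 649 CPM of Ctsd, and 1302 and 644 CPM of Ctsc. The cells labelled DC were also above C2 in Ctsb and Ctsd, with 530 and 490 CPM of Ctsb and 157 and 169 CPM of Ctsd, but had 209 and 173 CPM of Ctsc, close to the 249 and 174 CPM of C2. They carried 486 and 406 CPM of C1qa, a macrophage marker, and its part in these values was not tested. C11 also held 2788 CPM of Hbb-bs, a globin, in the WT library and 136 CPM in the Batf3-/- library.

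Ctsd stood apart because its highest level was in C13, at 272 and 256 CPM, and in the lymphoid cells of C13, at 376 and 369 CPM. No other cluster was above these lymphoid cells, so they give no such comparison for Ctsd. After thinning, 32.0% of the lymphoid cells of either library kept a Ctsd UMI, against 4.66% of WT and 4.37% of Batf3-/- cells in C0.

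The clusters with maturation markers had different protease profiles. In C12, the cDC1 cluster that carried 4808 CPM of 5 maturation markers such as Ccr7, WT cells had 147 CPM of Lgmn against 29.9 CPM in C4, 949 against 405 CPM of Ctsz and 778 against 403 CPM of Ctsh. Over both libraries 3 of 7 members passed 2-fold upward in C12 against C4 (Lgmn, Ctsz and Ctsh), where 19.8% of 2394 genes passed. Ctsh did not reach 2-fold in the WT library alone, with a log2 ratio of 0.95 (0.89 to 1.01). Ctss and Ctsc differed little, with log2 ratios of 0.05 (-0.03 to 0.13) and 0.07 (-0.145 to 0.28). Cst3 was lower in C12, with a log2 ratio of -0.80 (-0.81 to -0.78). Of the MHC class II presentation genes, 6 of 10 were past 2-fold downward in C12, as were 19.6% of all genes, among them H2-Ab1 (3483 against 11311 CPM) and the transactivator Ciita.

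The cDC2 cluster C1, with 3330 CPM of the same maturation markers, shared the Lgmn and Ctsh part of this profile. Lgmn was at 96.8 against 43.4 CPM in the WT library and at 87.5 against 45.6 CPM in the Batf3-/- library (C1 against C0), and Ctsh at 1329 against 798 and 1329 against 686 CPM. Ctsz was only slightly higher, with a log2 ratio of 0.23 (0.20 to 0.25), and Cst3 was higher in summed UMIs, at 0.38 (0.36 to 0.40). The median cell had less Cst3 in C1 than in C0, 1320 against 1407 CPM in WT and 1091 against 1372 CPM in Batf3-/- cells. The 95th percentiles were higher in C1, at 6723 against 3281 CPM in WT and 7626 against 4337 CPM in Batf3-/- cells. Lgmn was the 1 member of 7 past 2-fold over both libraries (in the Batf3-/- library alone its log2 ratio was 0.94), and 18.8% of 2639 genes passed in either direction. Ctsd, below the level filter, was lower in C1, with a log2 ratio of -0.86 (-1.01 to -0.72).

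C8, a cDC2a cluster with 1317 CPM of maturation markers, had a smaller Lgmn difference and no higher Ctsh. Its Lgmn ratio against C0 was 0.53 (0.39 to 0.66) and its Ctsh ratio -0.15 (-0.19 to -0.11). Instead Ctsc was at 266 against 130 CPM in WT and 242 against 118 CPM in Batf3-/- cells, the single member of 7 past 2-fold, while 7.36% of 2692 genes passed in either direction. Ctsb was lower, with a log2 ratio of -0.57 (-0.66 to -0.48). Over the 12 contrasts between clusters 19 of 83 pairs of a member and a contrast passed 2-fold, against 12.6% of all pairs of a gene and a contrast.

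**Figure D2:**
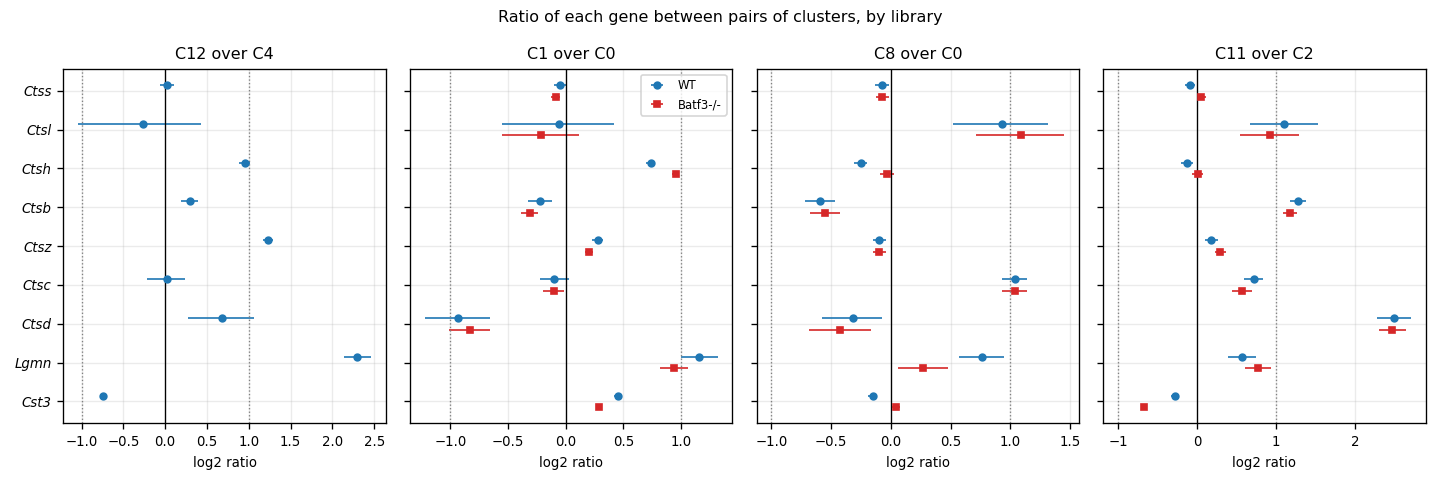
Log2 ratio of each gene in C12 over C4 (WT library, since the Batf3-/- library has 31 cells in each), C1 over C0, C8 over C0 and C11 over C2, with 95% intervals for counting error, WT in blue circles and Batf3-/- in red squares, and dotted lines at 2-fold. Lgmn and Ctsh were higher in C12 and C1, Ctsc in C8 and Ctsb and Ctsd in C11.

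Other lysosomal proteases and their inhibitors differed as well. Of 16 measured genes of a list that holds further cathepsins, carboxypeptidases and cystatins, 4 were tested in C12 against C4, and Scpep1 (125 against 21.7 CPM) and Cstb (196 against 69.7 CPM), a cytosolic cystatin, were past 2-fold upward, as were 19.8% of all genes. In C1 against C0, 3 of 5 tested were past 2-fold, where 18.8% of all genes were. Cstb was again higher (119 against 51.2 CPM), while Ctsa (81.0 against 181 CPM) and the aspartic protease Napsa (510 against 1101 CPM) were lower. In C4 against C0 the members of this list past 2-fold were Ctsa and Napsa, both lower. Among 37 lysosomal genes that are not proteases, 5 of 22 tested were past 2-fold upward in C4 against C0 (Npc2, Psap, Grn, Gusb and Naaa) and none downward, where 5.89% of all genes passed upward and 17.2% in either direction. In C12 against C4, 2 of 21 were past 2-fold upward and 7 downward, against 19.8% and 19.6% of all genes.

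The genes whose levels over the 17 clusters were most like each member differed between members. For Cst3 they were Gusb, Rab11a and the cDC1 marker Xcr1, with correlations of 0.92, 0.89 and 0.87. For Ctsl they were Klk1, the pDC marker Siglech and Ifnar2 (0.93, 0.89 and 0.86). For Ctss they were Atp6ap1, Fcer1g and Fth1 (0.84, 0.80 and 0.78), for Ctsc Mapkapk2, Csf1r and Sirpa (0.822, 0.811 and 0.805), and for Ctsb Laptm4a, Grn and Aldh2 (0.88, 0.85 and 0.81). For Ctsh they were Spib, Kynu and Prcp (0.77, 0.77 and 0.71), for Ctsz Bri3, Grb2 and Syngr2 (0.84, 0.82 and 0.81), for Ctsd Mat2b, Shisa5 and Ifi27l2a (0.75, 0.73 and 0.72), and for Lgmn Atp6v0c, B2m and Tmem176a (0.82, 0.75 and 0.71). Between members, Cst3 had correlations of -0.43 with Ctsc and -0.37 with Ctsh. All of these are descriptions over the same 17 clusters.

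Between genotypes most members differed little within a cluster. In the 15 clusters with at least 50 cells in each library, 108 pairs of a member and a cluster reached that level, and 12 of them passed 1.5-fold, 6 upward and 6 downward in Batf3-/- cells. Over all genes tested in these clusters 3.52% of pairs passed. Cst3 held 4 of the 12, all downward (C9, C13, C14 and C15). The others were Ctsh in C6 and C13, Ctsz in C9 and C13, Ctsl in C16 and Ctsc in C15 upward, and Ctsc in C11 and C16 downward. Only 3 of the 12 stayed past 1.5-fold in every alternative of the closing section that could be computed for them. These were 9 for Cst3 in C13, and 7 each for Cst3 in C15 and Ctsc in C16. Ctsh in C6 stayed past it in 8 of 9. Ctsz passed in 3 of 8 alternatives in C9 and in 4 of 8 in C13, and Ctsl in C16 fell to -0.12 in 1 of them. In C9, C13 and C16 the shares of all genes past 1.5-fold were 7.91%, 4.39% and 6.25%. Ctsb, Ctss, Lgmn and Ctsd had none. The median over the 108 pairs was a log2 ratio of -0.02.

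**Figure D3:**
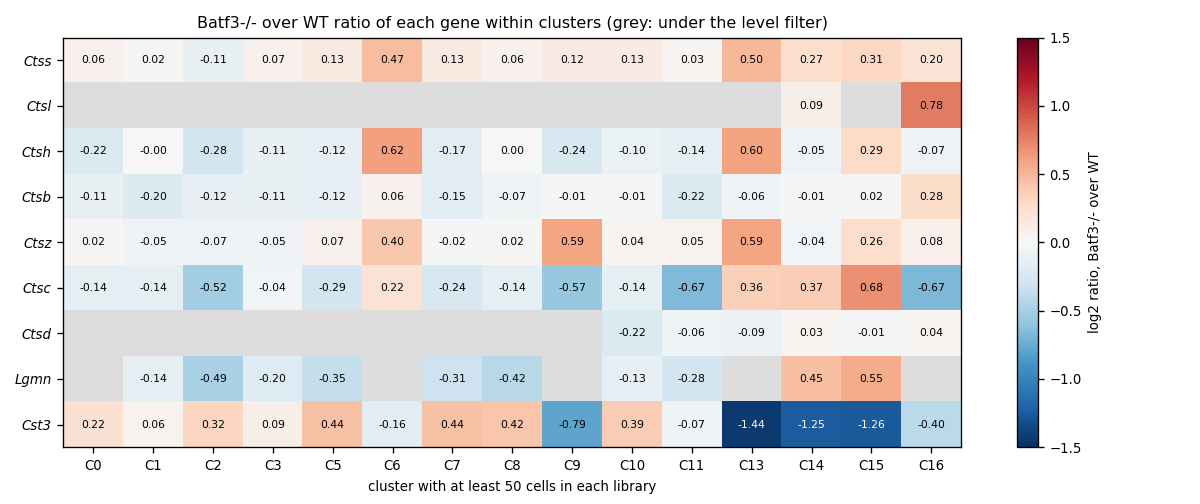
Log2 ratio of Batf3-/- over WT levels of each gene in the 15 clusters with at least 50 cells in each library, red for higher and blue for lower in Batf3-/- cells, grey where the mean was under 50 CPM. Cst3 ratios ran from -1.44 in C13 to 0.44 in C7, while Ctsb ratios lay between -0.22 and 0.28.

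Cluster C6, the cycling cDC1 cluster, is the 1 cDC1 cluster with many cells of both genotypes (797 WT and 727 Batf3-/-). Ctsh, Ctss, Ctsz and Lgmn were higher in its Batf3-/- cells. In the same cells 6 cDC2 markers summed to 52.4 CPM in WT and 229 CPM in Batf3-/- cells and the cDC1 markers to 3679 and 1213 CPM, and their part in the protease values was not tested. Ctsh was at 397 CPM in WT and 608 CPM in Batf3-/- cells, a log2 ratio of 0.62 (0.57 to 0.66) and the only one of 6 members tested to pass 1.5-fold, where 8.78% of 2585 genes passed. Ctss had 286 and 395 CPM (0.47, 0.41 to 0.53), Ctsz 417 and 552 CPM (0.40, 0.36 to 0.45), and Ctsc 62.2 and 72.5 CPM (0.22, 0.09 to 0.35). Below the level filter, Lgmn had 20.3 and 38.4 CPM (0.92, 0.71 to 1.12), the first not above the lymphoid cells of the WT library, and Ctsd 9.78 and 17.5 CPM (0.84, 0.54 to 1.14). Ctsb did not differ beyond counting error (0.06, -0.02 to 0.14).

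Cst3 was nearly as high in Batf3-/- as in WT cells of C6, with 17156 against 19124 CPM (-0.16, -0.16 to -0.15), and the median cell had 16976 against 18531 CPM. The median over the 6 members was 0.31, against 0.01 over all genes tested, whose 5th and 95th percentiles were -0.53 and 0.54. The cDC1 gene Naaa, a lysosomal amidase, was at 941 CPM in WT and 98.8 CPM in Batf3-/- cells of the same cluster, and Gusb at 323 and 156 CPM. Among the further lysosomal genes tested in C6, Naaa, Lipa, Gusb and Grn were past 1.5-fold downward and Lamp1 upward (68.0 against 113 CPM).

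**Figure D4:**
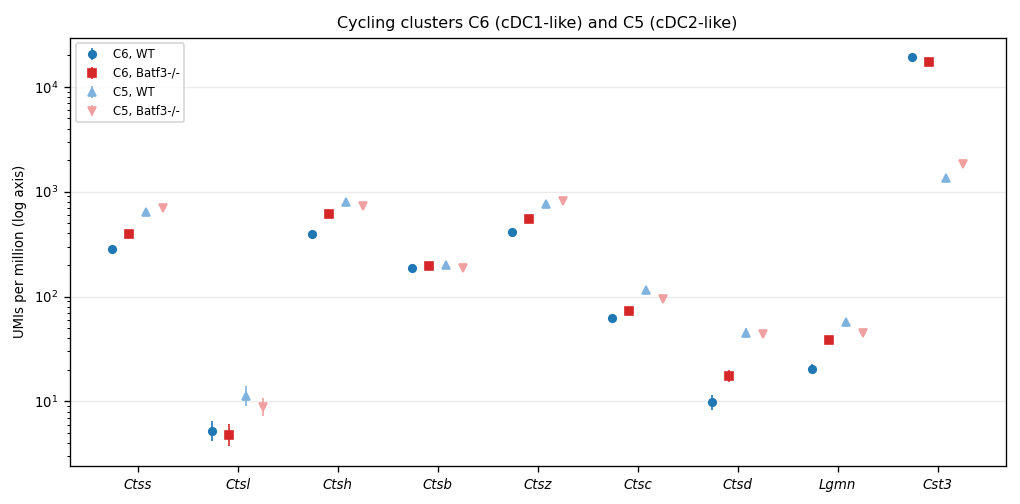
Level of the 9 genes in CPM on a log axis in the cycling clusters C6 (cDC1) and C5 (cDC2a) of each library, with 95% Poisson intervals. For Ctsh, Ctss, Ctsz and Lgmn the Batf3-/- cells of C6 lay between WT cells of C6 and WT cells of C5, and for Cst3 close to WT C6. The share of all genes that lay between is not given here.

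Relative to WT cells of C5, a cycling cDC2a cluster, the Batf3-/- cells of C6 lay away from WT C6 by 60.8% of the log2 distance for Ctsh, 61.4% for Lgmn, 45.8% for Ctsz and 39.8% for Ctss, but 4.10% for Cst3. For Ctsb the distance itself was small, and for Ctsl both levels were no higher than in the lymphoid cells. The phases differed within C6, with 13 of 797 WT and 189 of 727 Batf3-/- cells deposited as G1. Among cells in S phase alone Ctsh was at 376 and 577 CPM, Ctss at 274 and 380 CPM, Ctsz at 409 and 570 CPM and Lgmn at 19.4 and 34.6 CPM. In the 310 WT and 184 Batf3-/- cells in G2M, Ctsh was at 422 and 638 CPM, Ctsz at 432 and 535 CPM and Lgmn at 20.8 and 36.1 CPM. Ctss differed less there, at 296 (283 to 310) and 317 CPM (299 to 335). In G1 cells, of which the WT library has few, Ctsh was at 572 and 641 CPM and Ctss at 523 and 553 CPM, Ctsz at 353 and 529 CPM and Lgmn at 49.8 and 51.6 CPM.

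The remaining cDC1 clusters had few Batf3-/- cells, 31 in C4 and 31 in C12. In C4 Cst3 was at 26849 CPM in these cells against 23937 CPM in WT, and Ctsh at 565 against 403 CPM (0.49, 0.31 to 0.66). In C12 Cst3 was at 8334 against 14316 CPM, and Ctsh at 1544 against 778 CPM (0.99, 0.84 to 1.14). In C4 none of 6 members tested passed 1.5-fold and in C12 2 of 7 did (Ctsh upward, Cst3 downward), against 14.3% of 2417 and 18.1% of 2270 genes.

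Cst3 in the other clusters differed by genotype in opposite directions. It was higher in Batf3-/- cells of the cDC2a clusters other than C9, at 1851 against 1585 CPM in C0, 1834 against 1356 in C5, 1876 against 1379 in C7, 1902 against 1426 in C8 and 1728 against 1323 in C10, and in C2 at 3593 against 2872 CPM. None of these reached 1.5-fold. Within C2 the cells labelled DC had 3928 CPM in Batf3-/- against 2801 CPM in WT cells. Those labelled monocytes went the other way, at 2802 (2753 to 2851) against 3000 CPM (2940 to 3060). The ratio of 0.44 in C7 was at percentile 99.4 of the genes tested there. The middle and the upper end of the cells differed in this. In C0 the median cell had 1407 CPM in WT and 1372 CPM in Batf3-/- cells, and in C7 1097 and 1085 CPM, while 10.47% (9.39 to 11.6) and 13.3% (10.6 to 16.4) of Batf3-/- cells exceeded the 95th percentile of WT cells. This share, which is near 5% in WT cells by construction, ran from 6.56% to 14.7% in C0, C1, C2, C3, C5, C7, C8 and C10. It was 1.33% in C9 and 0 in C14. In C6, C11 and C13 it was 3.99%, 4.38% and 2.05%, and it was 0 in C15 and C16 with few Batf3-/- cells (52 and 68). Cells of 1 library are not replicates of a genotype, and these shares are descriptions. The medians were also higher in Batf3-/- cells of C10, at 1136 and 1275 CPM, and of C2, at 2343 and 2469 CPM. In C5 and C8 they were slightly higher, at 1062 and 1095 and at 1170 and 1189 CPM. In C1 the median was lower in Batf3-/- cells, at 1320 and 1091 CPM, while the log2 ratio of the summed UMIs was 0.06.

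The 4 clusters in which Cst3 was past 1.5-fold lower in Batf3-/- cells differed in kind. In the pDC cluster C14 it was at 3252 and 1372 CPM (-1.25, -1.33 to -1.16), with 2.72% of 2759 genes past 1.5-fold in either direction. The median cells had 1544 and 1250 CPM, and the highest cells 18724 and 3545 CPM, and the log2 ratio of the medians was -0.30 against -1.25 for the summed UMIs. Xcr1 was at 26.3 CPM in WT and 0.959 CPM in Batf3-/- cells of C14, and Naaa at 74.98 and 13.4 CPM. Cadm1 was also lower there, at 53.8 and 31.7 CPM, but Clec9a (113 and 125 CPM) and Irf8 (2960 and 2996 CPM) were not. The 6 cDC1 markers together, most of it Irf8, summed to 3240 and 3166 CPM in C14. In the monocyte cluster C15 Cst3 was at 9646 and 4027 CPM (-1.26, -1.33 to -1.19), with medians of 5815 and 3620 CPM, while Xcr1 was at 128 and 2.29 CPM and Naaa at 328 and 66.5 CPM. The part of such cDC1 transcripts in the Cst3 values was not tested.

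In C13 Cst3 was at 2387 and 882 CPM (-1.44, -1.54 to -1.34), beside cDC1 markers that summed to 500.4 and 191 CPM, Naaa at 124 and 13.9 CPM and Xcr1 at 42.6 and 1.74 CPM, whose part was not tested. Among the lymphoid cells of C13 Cst3 was at 532 CPM (484 to 584) in WT and 168 CPM (136 to 205) in Batf3-/- cells. Lymphoid cells of the WT library thus carried more Cst3 than those of the Batf3-/- library, and 32.0% against 14.4% of them kept a Cst3 UMI after thinning. C9 is a cluster of shallow cells, with medians of 1467 and 1487 UMIs and 13.996% and 13.3% of UMIs on mitochondrial genes. Cst3 was there at 988 and 571 CPM (-0.79, -0.97 to -0.62), beside the 532 and 168 CPM of the lymphoid cells, and the part of free RNA was not tested. Among cells with at least 2000 UMIs the ratio in C9 was -0.20.

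**Figure D5:**
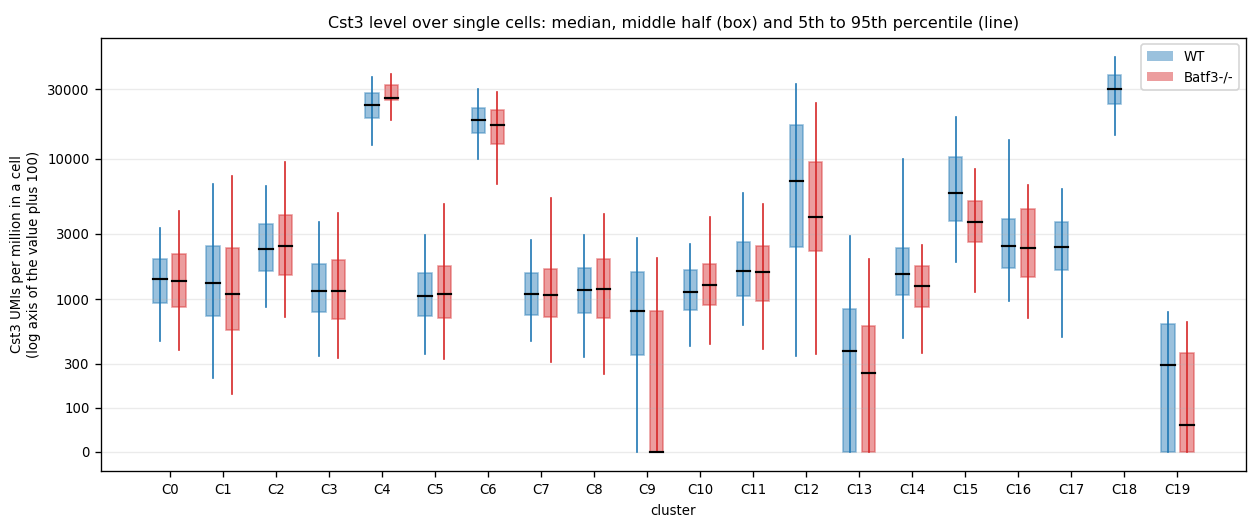
Cst3 level in CPM in single cells by cluster and library (log axis of the value plus 100), with the median as a black line, the middle 50% of cells as a box and the 5th to 95th percentile as a line, for libraries with at least 20 cells in the cluster. WT cells of C12 ran from 353 to 32484 CPM between these percentiles. No Batf3-/- cell of C12, C14, C15 or C16 (31, 101, 52 and 68 cells) exceeded the 95th percentile of WT cells.

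Cst3 ranged more widely among cells of C12 than among cells of C4. WT cells of C12 had a median of 6958 CPM, with 2419 and 17035 CPM at the quartiles, whereas WT cells of C4 had quartiles of 19040 and 28121 CPM. Across 351 WT cells of C12 thinned to 2000 UMIs the Spearman correlation of Cst3 with Ctsz was 0.24 and with Ctsh 0.02. In C6 of the Batf3-/- library Cst3 had a correlation of 0.41 with Irf8 over 727 cells, and of 0.12 over 797 WT cells. The cDC1 genes Naaa and Xcr1 went the other way, with 0.18 and 0.10 in Batf3-/- and 0.22 and 0.17 in WT cells. Irf8 is a transcription factor of cDC1 that was also at 2974 CPM in the pDC cluster C14. These values are descriptions within a library.

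Ctsc and Lgmn were lower in Batf3-/- cells of the cDC2b clusters and of several cDC2a clusters. Ctsc was at 249 and 174 CPM in C2 (-0.52, -0.60 to -0.44) and 409 and 258 CPM in C11 (-0.67, -0.82 to -0.51), and Lgmn at 132 and 94.0 CPM in C2 (-0.49, -0.60 to -0.37). In C11 Ctsc was 1 of 8 members past 1.5-fold, against 2.11% of 2657 genes, and in C2 none of 7 was, against 1.15% of 2436 genes. In C2 the neutrophil markers summed to 63.5 and 1.11 CPM, the macrophage markers to 56.3 and 43.2 CPM and the globin genes to 9.29 and 20.55 CPM. In C11 these sums were 64.2 and 0, 3099 and 2546, and 5262 and 270 CPM. The part of such cells or transcripts in the ratios was not tested. In cDC2a, Lgmn had log2 ratios of -0.42 in C8, -0.35 in C5 and -0.31 in C7, and Ctsc of -0.29 in C5 and -0.24 in C7. The Ctsc level of Batf3-/- cells was not above that of the lymphoid cells, 113 CPM (87.1 to 144), in 12 of 17 clusters, among them C5, C7 and C16, nor was that of WT cells in C16. Within C11 the cells labelled DC had 209 and 173 CPM of Ctsc, those labelled monocytes 623 and 449 CPM and those labelled macrophages 1302 and 644 CPM. Within C2 the cells labelled DC had 202 and 142 CPM and those labelled monocytes 325 and 247 CPM. Ctsc was thus lower in Batf3-/- cells under either label, and the part of free RNA or mixed cells under these labels was not tested. In the monocyte cluster C15 both genes were higher in Batf3-/- cells, Ctsc at 188 and 303 CPM (0.68, 0.36 to 1.00) and Lgmn at 96.8 and 142 CPM (0.55, 0.08 to 1.02), from 145 WT and 52 Batf3-/- cells. In the same cells the neutrophil markers summed to 9193 and 19918 CPM, the monocyte markers to 13052 and 19487 CPM and the cDC1 markers to 1351 and 378 CPM, and the part of these cells in the ratios was not tested. Ctsc was 1 of the 2 members of 8 past 1.5-fold in C15, the other being Cst3, and 11.6% of 2813 genes were.

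The ratios over whole libraries differed from those outside the cDC1 clusters. Cst3 was at 10691 CPM in the WT and 4029 CPM in the Batf3-/- library, but in the 15 clusters outside cDC1 it was at 1947 and 2143 CPM. Ctss was at 598 and 789 CPM over the whole libraries and at 781 and 845 CPM outside cDC1. Ctsh was at 677 and 828 CPM over the whole libraries, and outside cDC1 it was slightly lower in Batf3-/- cells, at 877 and 857 CPM. Ctsc was at 114 and 124 CPM over the whole libraries and at 157 and 131 CPM outside cDC1, and Ctsb at 252 and 236 CPM and at 277 and 241 CPM.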

How the data were processed

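The study aligned CITE-seq reads of sorted splenic cells (10x Genomics) with Cell Ranger to GRCm38, evened the depth of the libraries, and filtered and clustered cells in Seurat. The raw tables are deposited as counts (UMIs of each gene in each cell), and mitochondrial shares are deposited as a fraction of a cell's UMIs. Totals, detected genes and these fractions, recomputed from the counts, equalled the deposited values in 24343 of 24343 cells. The deposited cluster at resolution 0.5, cell label and phase of each cell were used; antibody and normalized tables were not used. Samples were grouped by genotype as the labels give it.

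Counts were summed per cluster and library with Python 3.11.15, numpy 2.4.6, scipy 1.17.1 and pandas 2.3.3. Levels have exact Poisson, ratios exact binomial-split and shares Clopper-Pearson 95% intervals, which cover counting error only; the steps were tested on simulated data. A gene entered a comparison where its mean level reached 50 CPM and its UMIs 20, and was then set against 1.5-fold between genotypes and 2-fold between clusters. For shares, cells were thinned to 1000 UMIs; 28 WT and 42 Batf3-/- cells fell short. No doublet caller was run; leaving out possible doublets, cells above 2 times the median UMIs of their cluster and library or with 2 or more UMIs of T, NK, B or erythroid markers, was an alternative (1211 WT and 1274 Batf3-/- cells). Promoters are from RefSeq (GRCm38.p6), matched by symbol for 7 of 9 genes, and gene positions from GENCODE M21. Named genes are the members, the 3 genes most like each in pattern, and those of 3 further lists that passed the fold or had the highest levels, with single cell type markers (C1qa, Hbb-bs, Xcr1, Irf8, Naaa) named beside results after their values were seen. Alternatives are given in the closing section. 0 columns of per-sample values were unmapped. Ifi30 was not analysed here. A result on 1 gene of the further lists is not reported here. The members and lists were chosen with earlier results of these data known.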

Additional observations from a re-analysis of the deposited data

Results flagged for a closer look

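Ctsc is the 1 member that passed 1.5-fold in opposite directions between genotypes. Its log2 ratio of Batf3-/- over WT was -0.67 in C11, -0.67 in C16 and 0.68 in C15. The difference between these clusters was not tested, and with 1 library per genotype it cannot be. C16 rests on 77 WT and 61 Batf3-/- Ctsc UMIs. In C15 the ratio was under 1.5-fold when each cell had equal weight or possible doublets were left out, and in C11 with cells labelled DC alone (-0.27) or as a ratio of medians over cells (-0.52).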

How the results depend on the processing

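Of the 12 pairs of a member and a cluster past 1.5-fold between genotypes, 3 stayed past it in every alternative that could be computed, namely Cst3 in C13 and C15 and Ctsc in C16. With cells labelled DC alone 7 pairs passed. With a log2 limit of 0.32 there were 30 pairs and with 2-fold 3 pairs, and with a mean of at least 10 CPM or with no level filter 19 pairs. In C6 the 1 member past the fold became 3 at the log2 limit of 0.32, 3 at 10 CPM, 3 with no level filter and 0 at 2-fold. The share of all genes past these other limits and filters is not given here, so these counts stand without a background. Leaving out doublets, weighting cells equally, dropping mitochondrial and ribosomal genes, S and G2M cells alone (chosen after seeing the data), centring on the median of all genes and cells with at least 2000 UMIs gave 9 to 12 pairs over the 15 clusters, and G1 cells alone 15. Of the 108 pairs, 100 could be compared with cells labelled DC alone, 101 with G1 cells and 83 with S and G2M cells. The share of all genes is not given for these settings either, so their counts are not comparable with the 12. For Ctsh in C6, only G1 cells brought the ratio under 1.5-fold, at 0.16. Cst3 in C14 was past 1.5-fold in 7 of 8 alternatives, the exception being the ratio of medians over cells, at -0.30. Ctsl in C16 turned from 0.78 to -0.12 as a ratio of medians over cells. These ratios of medians and the contrasts without macrophage-labelled cells were also chosen after seeing the data. Between clusters 34 pairs passed 1.5-fold in place of the 19 past 2-fold, and 5 members in C4 over C0 in place of 2. The share of all genes past 1.5-fold between clusters is likewise not given here. All other settings gave 16 to 20 pairs, also without a background. No paired analysis was possible because each genotype is 1 library. Counting error does not cover the spread between mice, which these data cannot give, and members under 50 CPM (Ctsl and Ctsd in most clusters, Lgmn in some) are limited by depth.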
